A study of Mus musculus with 8 samples.

Results

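The regions described here were accessible before retinoic acid (RA) and had no called peak after it. Peaks of all 8 libraries were merged where they overlapped by at least 1 bp. A region was kept when both libraries of 0 h post-RA had a peak in it and none of the 6 libraries of 18, 48 and 120 h did. This rule gave 18636 of the 87144 merged regions (21.4%), or 31.6% of the 59063 regions with a peak in both 0 h libraries. The regions were chosen by the peak calls themselves, so their presence at 0 h and absence later describes the selection and was given no test.

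ATAC-seq, in which a transposase inserts sequencing adapters into open DNA, was performed on sorted germ cells of 4 timepoints with 2 libraries each. The cells were eGFP-positive cells of mice with a PIWIL2-eGFP transgene, in which the Piwil2 promoter marks germ cells in general and does not separate spermatogonial stages. Mice of every group, controls included, received WIN 18,446, an inhibitor of RA synthesis, at 100 mg/kg for 7 days from 2 dpp. The 0 h group was collected without RA, and the other groups at 18, 48 or 120 h after 200 µg RA given at 9 dpp, so age and RA exposure cannot be told apart. The testes of 1 mouse made up each library. The labels give a C57BL/6 x 129s4/SvJae background and 100000 cells per library, whereas the methods give C57BL/6 x SJL and another cell number. In such bulk cell samples, a region open in fewer cells and a region less open in each cell cannot be told apart.

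Without RA, type A undifferentiated spermatogonia (Aundiff), the pool that holds the stem cells, do not enter differentiation. An RA pulse drives the A-to-A1 transition, after which KIT-positive spermatogonia divide through A1 to B types. Accessible regions are of several kinds: promoters in CpG islands are open in most cell types, whereas distal sites away from gene starts, many of them enhancers, are used by fewer cell types. Peak height, as used below, is the authors' tag coverage at the peak summit after every library was reduced to the same number of tags. The 0 h height of a region is the lower of its values in the 2 libraries.

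The sequences around the summits of the highest regions are shown because these are the regions whose peak was tallest before it ceased to be called. Each line below is the plus strand of GRCm38 over 100 bases on each side of the summit, with matches to any of 27 short motifs, searched on both strands, in capitals. They belong to 9 of the 13 highest regions. The windows of 3 others, beside D830036C21Rik, Gsk3a and Gm2444, held no match, and that of the sixth highest, in Ldlrad4, held FOX and TEAD matches but its sequence is not shown. The capitals mark GATA in Zfpm1, NF-Y and GLI in Csnk1g2, the POU octamer in the region with no gene and in Ccnd2, and RFX in Cstf3. They mark DMRT in Fbln1, a pair of overlapping GC boxes in Fgfrl1, a neurogenin-type E-box and GLI in Ptch1, and AP-1 and FOX in Rfx8. A match describes these letters and is not evidence that a factor was bound.
Zfpm1 intron, chr8:122294253-122294453: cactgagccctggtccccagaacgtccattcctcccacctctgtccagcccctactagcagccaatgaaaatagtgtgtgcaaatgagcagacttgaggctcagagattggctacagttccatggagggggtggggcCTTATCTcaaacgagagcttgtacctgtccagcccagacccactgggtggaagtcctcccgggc
Csnk1g2 upstream, chr10:80619981-80620181: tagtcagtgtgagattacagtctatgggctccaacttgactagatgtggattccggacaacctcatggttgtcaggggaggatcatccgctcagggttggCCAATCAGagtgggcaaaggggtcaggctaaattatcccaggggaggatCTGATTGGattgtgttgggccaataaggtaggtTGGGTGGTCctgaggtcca
no assigned gene, chr9:92930669-92930869: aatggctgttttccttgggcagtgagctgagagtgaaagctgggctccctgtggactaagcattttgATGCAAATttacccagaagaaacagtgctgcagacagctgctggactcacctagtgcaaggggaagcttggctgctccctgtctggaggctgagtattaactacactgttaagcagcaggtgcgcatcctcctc
Cstf3 upstream, chr2:104588717-104588917: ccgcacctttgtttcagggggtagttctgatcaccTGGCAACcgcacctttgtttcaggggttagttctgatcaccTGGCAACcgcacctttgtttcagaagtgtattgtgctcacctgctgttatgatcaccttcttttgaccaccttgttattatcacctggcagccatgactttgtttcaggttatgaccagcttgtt
Ccnd2 upstream, chr6:127152493-127152693: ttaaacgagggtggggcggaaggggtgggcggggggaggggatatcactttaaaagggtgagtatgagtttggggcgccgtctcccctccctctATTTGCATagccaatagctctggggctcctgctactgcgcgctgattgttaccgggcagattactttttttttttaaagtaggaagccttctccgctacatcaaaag
Fbln1 intron, chr15:85209645-85209845: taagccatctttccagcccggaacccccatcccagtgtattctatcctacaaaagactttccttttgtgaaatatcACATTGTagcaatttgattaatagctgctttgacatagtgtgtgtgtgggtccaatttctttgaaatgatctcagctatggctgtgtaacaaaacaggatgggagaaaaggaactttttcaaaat
Fgfrl1 upstream, chr5:108692301-108692501: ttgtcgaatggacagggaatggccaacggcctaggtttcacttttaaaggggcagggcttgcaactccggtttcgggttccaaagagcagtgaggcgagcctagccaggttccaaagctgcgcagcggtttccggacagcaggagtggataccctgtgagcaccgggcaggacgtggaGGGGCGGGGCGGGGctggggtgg
Ptch1 upstream, chr13:63566317-63566517: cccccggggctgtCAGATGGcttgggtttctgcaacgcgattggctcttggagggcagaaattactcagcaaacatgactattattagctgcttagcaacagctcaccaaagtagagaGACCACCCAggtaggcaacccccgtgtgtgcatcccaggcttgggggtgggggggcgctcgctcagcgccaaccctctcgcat
Rfx8 intron, chr1:39714157-39714357: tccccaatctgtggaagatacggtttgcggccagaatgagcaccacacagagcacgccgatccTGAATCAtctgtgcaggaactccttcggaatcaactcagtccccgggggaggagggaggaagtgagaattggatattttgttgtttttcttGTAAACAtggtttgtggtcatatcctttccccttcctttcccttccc

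The tallest region lay in an intron of Zfpm1, which encodes a GATA cofactor. Its summit value was 294 in 0 h replicate 1 and 277 in 0 h replicate 2, at chr8:122294125-122294662. The region with the second highest 0 h height, chr10:80619920-80620268, lay 2716 bp upstream of Csnk1g2, a casein kinase gene, with 272 and 365. The third, chr9:92930482-92931015, had no assigned gene and values of 345 and 251. All 3 were intergenic or intronic and none overlapped a CpG island. Ccnd2, the gene of cyclin D2, which drives entry into S phase, had a region 1528 bp upstream of its start at chr6:127152385-127152829 with values of 239 and 254. Ptch1, the gene of the hedgehog receptor, had a region 848 bp upstream of its start with a CpG island, at chr13:63566219-63566593, with 214 and 328. In both genes the 2 libraries were above 200, whereas the median over all such regions was 54 in either library.

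Of the 20 highest regions, 3 lay within 1000 bp of a transcription start site (TSS), namely those at D830036C21Rik, Ptch1 and Mir22hg. Among the others were regions in introns of Fbln1 (226 and 236), Rfx8 (202 and 200) and Slc17a7 (190 and 198). Regions upstream of Cstf3 (244 and 325), Gsk3a (212 and 305) and Mybl2 (188 and 253) were also in this set. Mybl2 encodes a cell cycle transcription factor and Gsk3a a kinase of Wnt and insulin signalling. At TSSs, the next highest were at Gpr142 (174 and 177) and Cd68 (172 and 166), a macrophage lysosomal gene whose region is also assigned to Eif4a1 and Senp3. With a CpG island, they included regions beside Zbtb7b (180 and 232), Cyp26c1 (159 and 170) and Nr2f1 (147 and 160).

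At the other end, the 5 lowest regions had a 0 h height of 26, and the lowest peak called in any library had a summit value of 24 or 25. Just outside the rule, 7060 regions had a peak in exactly 1 later library. The highest of these were at Rasl10a, with 349 and 378 at 0 h and 145 in 120 h replicate 1, and at Tapbp, with 331 and 444 at 0 h and 126 in 18 h replicate 2. Of the 7060 later peaks, 37.2% were in 120 h replicate 1 and 28.2% in 18 h replicate 2, whereas 2.35% were in 120 h replicate 2. A further 16956 regions had a peak in 1 of the 0 h libraries and in no later library.

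The regions were low at 0 h. Their 0 h height had a median of 48 (interquartile range 39 to 62, highest 277), against 216 in the 15536 regions that were called in every library, termed shared regions below. Both libraries had the same median of 54, and the log2 ratio between them had an SD of 0.43, with 97.3% of regions within a factor of 2. Height was at least 100 in both libraries in 679 regions (3.64%) and at least 150 in 78. Regions were also short, with a median length of 391 bp against 819 bp in shared regions. When the 59063 regions of both 0 h libraries were divided into 10 classes of equal size by height, those found at 0 h alone made up 79.6% of the lowest class, 31.6% of the fifth and 0.0339% of the highest. Height was used by the caller that chose the regions, so these shares are a description of the choice.

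**Figure D1:**
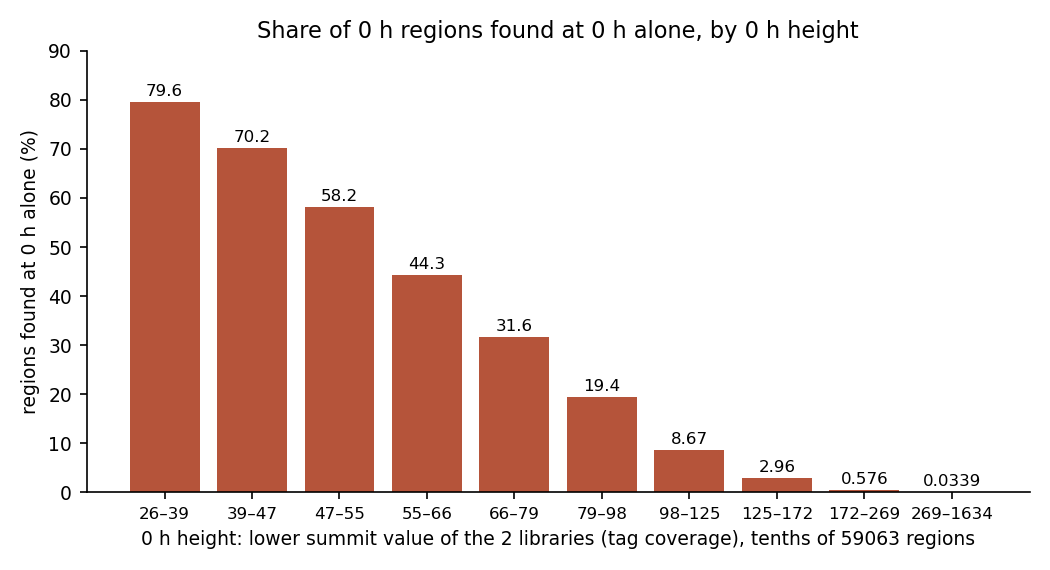
Share of the regions of both 0 h libraries that had no peak in any later library (y axis, %), in 10 classes of equal size by 0 h height (x axis, tag coverage). The share is 79.6% in the lowest class and 2.96% in the eighth class.

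Signal at the sites that all libraries share differed between 0 h and the later libraries. Over the 15536 shared regions, the median summit value was 224 and 270 in the 0 h libraries. The libraries of 18 h had medians of 91 and 116, those of 48 h had 86 and 102, and those of 120 h had 166 and 106, so every later library was below both 0 h libraries. In limma's fit to log2 summit values, 14337 of these regions (92.3%) were lower at 18 h than at 0 h and 46 (0.296%) were higher, at a Benjamini-Hochberg adjusted p under 0.05, and the median change was -1.23 on the log2 scale. Centring each library on its median over these regions left 35 lower and 194 higher, so the direction rests on the scaling. Leaving out 18 h replicate 1 gave 7491 lower (48.2%), and leaving out 0 h replicate 2 gave 8515 (54.8%). Whether the level comes from the cells or from the libraries was not tested.

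The calling limit did not move with this level. Scaled by the ratio of the medians at shared regions, the median region found at 0 h alone would have had a summit value of 20.2 in 18 h replicate 1 and 22.7 in 48 h replicate 2, where the lowest called peak was 25. It would have been 25.8 in 18 h replicate 2 and 36.9 in 120 h replicate 1, where the lowest called peak was 24. In 120 h replicate 1, 17812 of the regions (95.6%) had a scaled height above the lowest called peak and 9848 (52.8%) above the 5th percentile of called peaks, whereas in 48 h replicate 1 these were 4453 (23.9%) and 1381 (7.41%). Of the 18636 regions, the same 1381 were above the 5th percentile in all 6 later libraries, and 57 (0.306%) were above the median called peak in all 6. In a library where the scaled height lay below the lowest called peak, the lack of a peak could not be told apart from a change as large as that of shared regions. With the limit for 0 h peaks raised to the same ratio as the lowest called peak of 48 h replicate 1 (65.1 and 78.5 in the 2 libraries), 2713 regions (8.32% of 32611) were found at 0 h alone. With the ratio of its 5th percentile instead (88.6 and 107), 757 were (3.16% of 23981). With the same number of highest peaks in every library, 835 were.

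**Figure D2:**
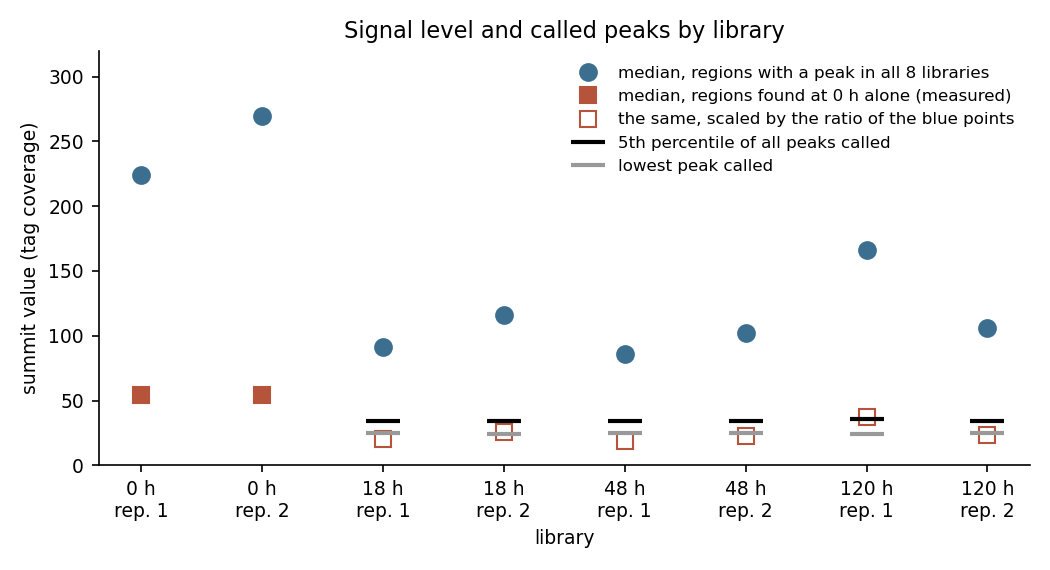
Summit values (y axis, tag coverage) in each of the 8 libraries (x axis): blue points are medians over the 15536 shared regions, filled squares are measured medians of the regions found at 0 h alone, open squares are these medians scaled by the ratio of the blue points, and bars are the 5th percentile (black) and lowest value (grey) of called peaks. The open squares lie below the 5th percentile (black bar) in 5 of the 6 later libraries and below the lowest called peak (grey bar) in 4.

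The regions lay away from gene starts. Within 1000 bp of a TSS were 1371 of them (7.36%), against 57.4% of shared regions and 32.3% of all 0 h regions with at least 1 later peak. A CpG island was overlapped by 944 (5.07%), against 58.6% of shared regions. No gene was assigned within 10 kb to 8059 (43.2%), against 13.7%. Introns held 6821 (36.6%, against 32.1% of all 0 h regions), intergenic sequence 8844 (47.5%, against 35.6%) and exons 1600 (8.59%, against 7.83%). In 0 h regions with 1 later peak the shares were 37.0%, 40.9% and 9.87%, so those of introns and exons were not particular to this set. Of the 10812 TSS regions with a CpG island, 3.98% were found at 0 h alone, and of the 3624 TSS regions without one, 26.0%. Median GC content was 51.2% against 61.7% in shared regions.

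**Figure D3:**
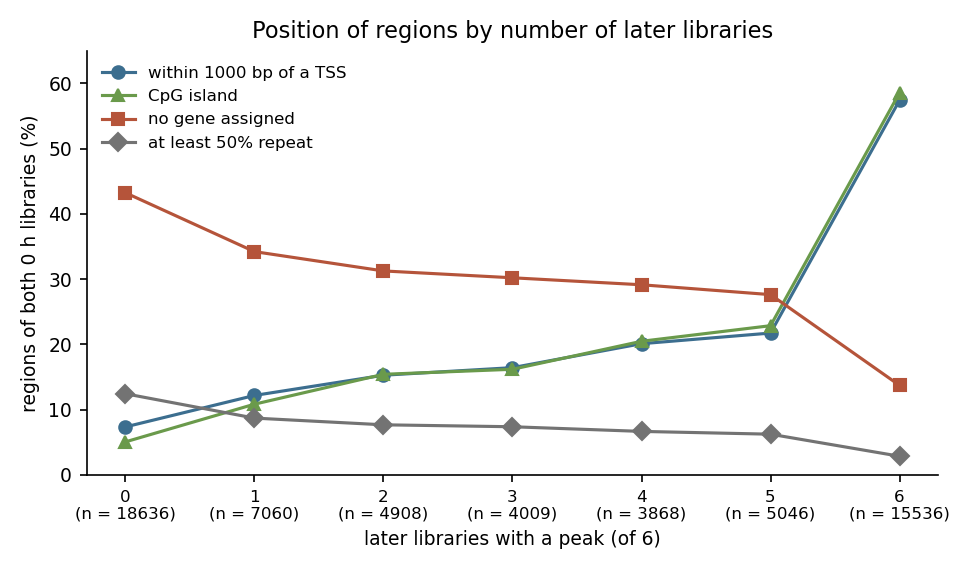
Percent of the regions of both 0 h libraries within 1000 bp of a TSS, with a CpG island, with no assigned gene and with at least 50% repeat sequence around the summit (y axis), by the number of later libraries with a peak (x axis). The regions found at 0 h alone are at the left, with 7.36% at a TSS and 43.2% without a gene.

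At equal height the regions found at 0 h alone were also less often at a TSS in each of the 10 classes, but the order for regions with no gene turned with height. In the lowest height class, 4.91% of the regions found at 0 h alone and 9.06% of the others were at a TSS, and in the eighth class 16% and 31.9%. Repeats, taken as windows with at least 50% soft-masked bases, made up 12.4% of the regions found at 0 h alone and 2.86% of shared regions. Their share was 12.3% against 6.90% in the lowest class and 13.7% against 6.13% in the eighth. No gene was assigned to 50.8% against 37.7% in the lowest class, but to 20.6% against 23.4% in the eighth, and the share was lower in the regions found at 0 h alone from class 7 upwards. Among the 756 regions of the original set above the raised limits of 88.6 and 107, 12.2% were repeats, against 4.90% of the 23225 others above them, 14.3% against 43.7% were at a TSS, and 10.8% against 44.3% had a CpG island. These groups were not of equal height, with medians of 112 and 174, and 21.2% against 18.7% had no gene. Which families the repeats belong to was not analysed here.

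Tall regions lay close to shared ones. Of the 756, 355 (47.0%) were within 10 kb of a shared region and 156 (20.6%) within 2 kb, against 24.4% and 6.00% of the others above the same limits. Over all heights the shares within 10 kb were 15.2% of the regions found at 0 h alone and 21.4% of the others. Near tall shared regions the later libraries held few low peaks. Within 2 kb of a shared region above the upper quartile of height, the lowest called summit value was 39 to 54 over the 6 later libraries, and farther than 50 kb from any it was 24 or 25. A lowest value depends on the number of regions, which was 298 to 473 per library near and 16789 to 27935 far. The 5th percentiles were 56.85 to 76 near and 34 or 35 far. The part of this higher limit in the absence of later peaks was not tested.

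The shared regions within 10 kb of a region found at 0 h alone behaved much like the other shared ones. There were 2815 of them, and 2569 (91.3%) were lower at 18 h than at 0 h in the fit above, against 92.3% of all 15536, and the median log2 change was -1.23 in both. From 48 to 120 h, a contrast with no 0 h library in it, 574 (20.4%) were higher and 4 lower, against 23.7% higher and 0.18% lower of all. The median log2 change was 0.49 beside regions found at 0 h alone and 0.56 over all. With each library centred, 233 were higher and 203 lower, that is 8.28% and 7.21%, against 9.48% and 7.45% of all 15536, and the median of the 2815 was -0.01. Without 48 h replicate 1 and without centring, the median log2 change was 0.36 in the 2815 and 0.44 over all. Without 120 h replicate 1 it was smaller still, at 0.18 in the 2815 and 0.27 over all, and the cause was not tested.

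The letters around the summits differed from those of other 0 h regions in both directions. A DMRT motif, ACATTGT, was in 7.23% of the windows of regions found at 0 h alone, in 10.9% of the other 0 h regions and in 9.74% of all 0 h regions. DMRT proteins include DMRT1, which acts in spermatogonia. With the other regions weighted to the same GC content and height the value for them was 14.6%, and in each of the 9 lower height classes the share was lower in the regions found at 0 h alone, for example 5.95% against 11.5% in the lowest and 6.86% against 12.8% in the eighth. Above the raised limits it was 5.82% against 9.96%. Occupancy by DMRT proteins was not measured.

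Motifs of other factors were more frequent. The CTCF core was in 4.20% of the regions found at 0 h alone and 2.87% of the others (3.04% when weighted), with 3.29% over all. CTCF organizes loops and boundaries of chromatin. By height the order was not the same throughout, with 2.04% against 2.41% in the lowest class, 5.73% against 3.64% in the fifth and 2.86% against 3.46% in the eighth. Above the raised limits the values were 5.03% and 2.72%. The FOX motif TGTTTAC was in 5.37% and 3.05% (3.23% weighted, 3.78% over all), and in 6.88% and 3.05% above the limits. There the TEAD motif CATTCCA was in 4.89% against 1.95%, SOX (ACAATGG) in 4.23% against 2.42% and the motif of GATA factors, AGATAAG, in 3.04% against 1.16%. Over all heights, SOX was at 3.54% against 2.59% (3.32% weighted), TEAD at 2.75% against 2.27% (3.10% weighted) and GATA at 2.06% against 1.40% (2.08% weighted). Over all regions these 3 differences thus shrank or turned with the weighting for GC and height. Above the raised limits no weighting was applied, and median GC there was 52.2% against 58.2%. The values above the limits rest on 32 (SOX), 37 (TEAD) and 23 (GATA) of the 756 regions.

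Letters of CpG-rich promoters were rare. The GC box GGGGCGGGG of SP and KLF factors was in 1.91% against 7.53%, the ETS motif CCGGAAGT in 1.34% against 2.83%, and the CRE TGACGTCA in 0.472% against 1.41%. Weighting brought the others to 2.22%, 1.08% and 0.511%, close to the regions found at 0 h alone. The POU octamer ATGCAAAT, bound by POU5F1, was in 1.14% against 1.07%. AP-1 (TGANTCA) was in 5.81% against 4.80%, but 6.46% when weighted. The DR5 element, the spaced repeat through which RAR and RXR receptors act, was in 17 windows (0.0912%) against 0.0989% (0.182% weighted), which is few windows.

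For several other motifs the direction turned with the weighting for GC content and height. The NF-Y box CCAATCAG was in 3.03% of the regions found at 0 h alone and 4.25% of the other 0 h regions, but in 1.70% of these when weighted. The E-box CACGTG was at 5.15% and 6.14% (4.65% weighted). The neurogenin-type E-box, CAGATGG, was at 4.54% and 3.64% (4.74% weighted), and RUNX (TGTGGTT) at 4.0% and 3.42% (4.08% weighted). Homeobox letters, TAATTA, were more frequent both ways, at 2.90% against 1.65% (2.22% weighted), and RFX (GTTGCCA) less frequent both ways, at 4.33% against 4.63% (5.08% weighted). The PEA3 type of ETS site, CAGGAAGT, which shares its last letters with the ETS motif, was at 2.74% and 2.38% (2.44% weighted). NRF1 (GCGCATGCG) was at 1.04% and 1.65% (1.18% weighted). The rest were each in under 1% of the windows found at 0 h alone. YY1 (AAGATGGCG) was at 0.79% and 1.06% (0.44% weighted), and STAT (TTCCNGGAA) at 0.68% and 0.60% (0.48%). SF1 and NR5A (TCAAGGTCA) were at 0.42% and 0.27% (0.38%), and E2F (TTTCCCGC) at 0.32% and 0.57% (0.27%). GLI (TGGGTGGTC) was at 0.23% and 0.24% (0.33%), and EGR (GCGTGGGCG) at 0.13% and 0.52% (0.21%). REST was in 30 windows (0.16%) against 25 (0.062%, 0.036% weighted).

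**Figure D4:**
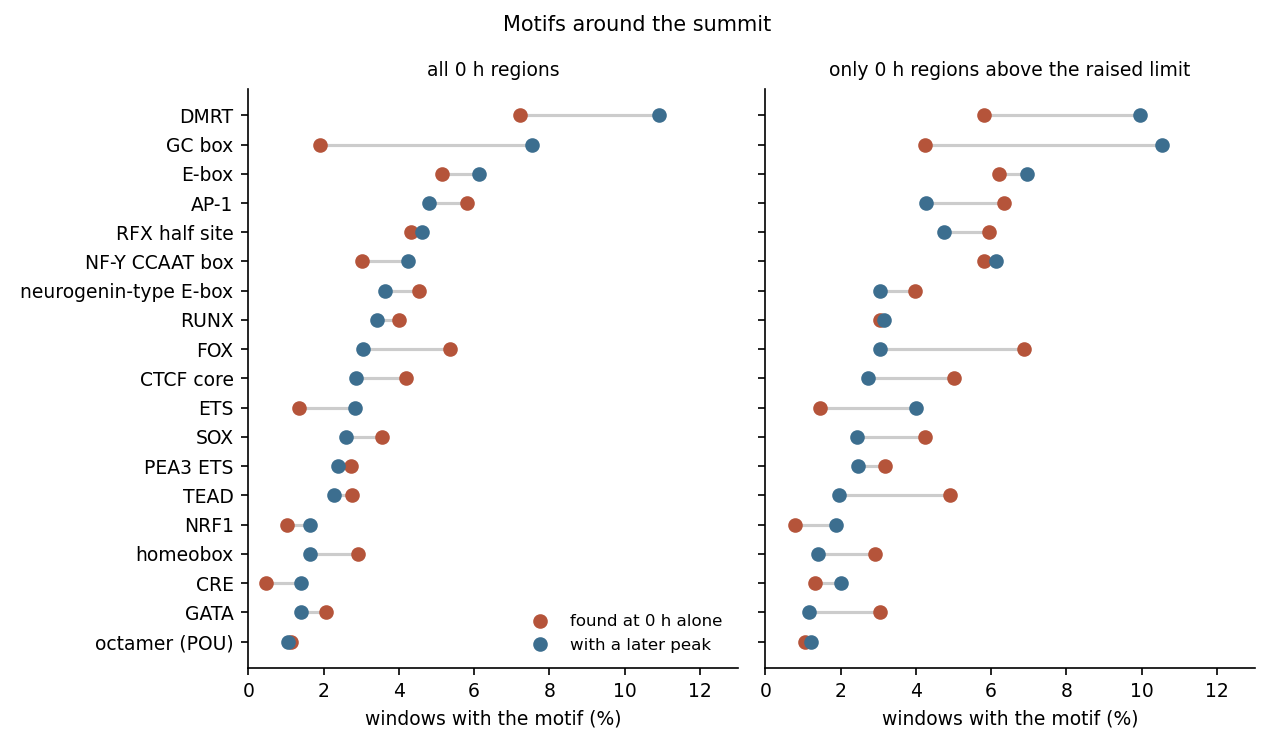
Percent of summit windows that hold a motif (x axis) in regions found at 0 h alone and in 0 h regions with a later peak, for the motifs present in at least 1% of all 0 h windows (y axis), over all heights (left) and above the raised limits of 88.6 and 107 (right). DMRT is lower in the regions found at 0 h alone in both panels, at 7.23% and 5.82%.

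The regions were spread over many genes. Of the 20547 genes with a region of both 0 h libraries, 8802 (42.8%) had at least 1 found at 0 h alone. Most had few: 6014 genes had 1, 196 had 5 or more and 27 had 10 or more. For 1367 genes every 0 h region was of this kind, and 1074 of these genes had a single region. A shared region was also present in 5276 (59.9%) of the 8802 genes. At the TSS, 1374 genes had a region found at 0 h alone, of which 133 also had a shared region at the TSS.

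Genes with many such regions were long. Their median length was 356 kb for 5 or more, against 19.0 kb over all genes. Genes with as many 0 h regions of any kind were not compared, so the length is not shown to be particular to these regions. Of all intronic 0 h regions, 36.0% were found at 0 h alone. Ctnna3, an alpha-catenin gene, had 17 of its 35 regions found at 0 h alone, none higher than 73, over 1574 kb. Mtus2 had 15 of 37, Pde4d, a cyclic AMP phosphodiesterase gene, 14 of 27, and Grm8, a metabotropic glutamate receptor gene, 12 of 14. Sez6l had 11 of 23, and 10 of these 11 lay within the gene. Per length of the gene, Sez6l had 6.27 within it per 100 kb and Srrm4 5.87, against 1.02 in Ctnna3. The antigen receptor loci Tcra and Igh, whose annotated spans cover many gene segments, had 13 and 12. Camta1 was the 1 gene with 3 regions above the raised limits.

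The gene lists differed in the share of their 0 h regions found at 0 h alone, which was 25.7% over all genes. The list of synapse and ion channel genes was at 41.5%, with 177 of 426 regions in 55 of 60 genes and a median height of 47. Its genes have a median length of 514 kb. Examples were Dlgap1, a postsynaptic scaffold gene, with 10 of 33 (highest 152) and Scn8a, a sodium channel gene, with 7 of 21 (highest 133). Lists of genes with open promoters in most cells were low: ribosomal protein genes were at 11.6% (17 of 146) and cell cycle genes at 12.5% (17 of 136). In these lists 64.4% and 52.9% of the regions were shared. Spermatid genes were lowest, at 7.5% (3 of 40).

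**Figure D5:**
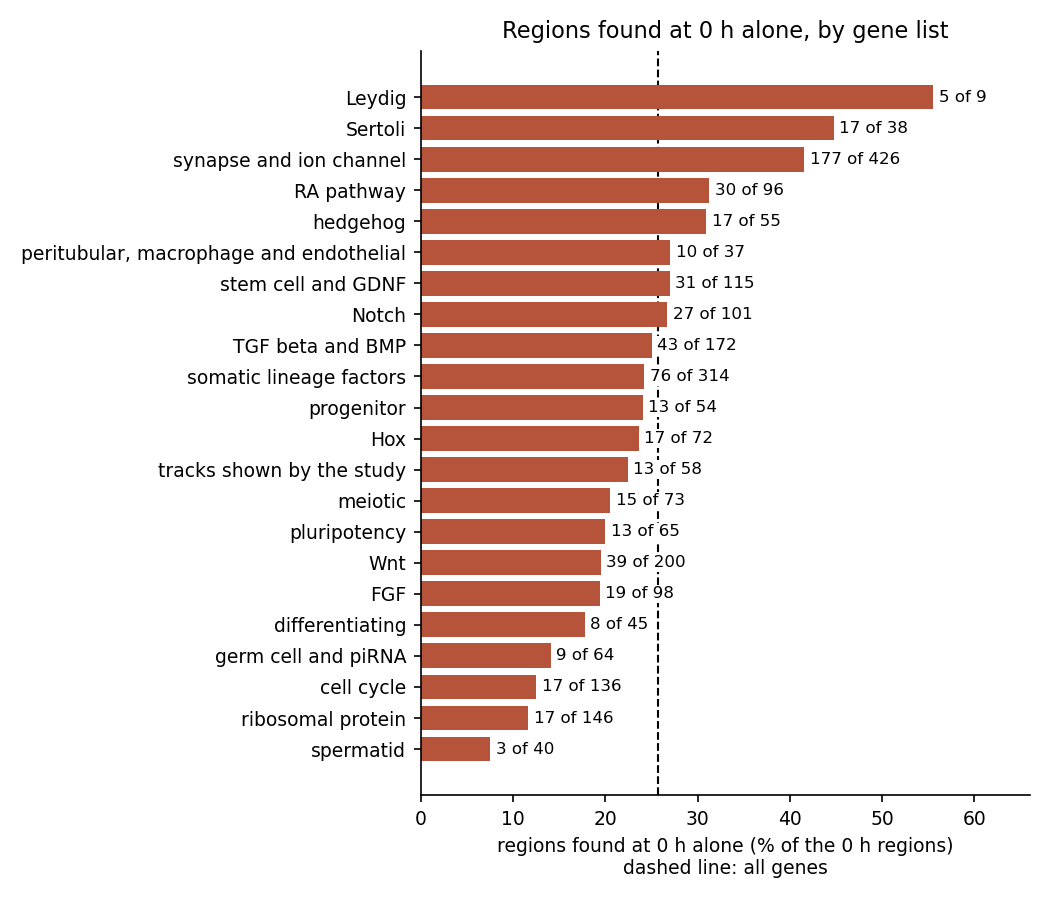
Percent of the 0 h regions of the genes in each of 22 lists (y axis) that were found at 0 h alone (x axis), with the counts beside each bar and the value over all genes, 25.7%, as a dashed line. The synapse and ion channel list, at 41.5%, has the most such regions (177).

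Genes of undifferentiated spermatogonia were near the value of all genes. The stem cell and GDNF list was at 27.0% (31 of 115 regions, 17 of 28 genes). Gfra1, which encodes the GDNF receptor of stem spermatogonia, had 7 of its 17 regions found at 0 h alone and no shared region. The highest of these, 47586 bp from the start, had 178 and 108. Zbtb16, the gene of the self-renewal factor PLZF, had a pair of such regions, at chr9:48648975-48649563 with 88 and 100 and in an intron at chr9:48753766-48754146 with 54 and 52. Pax7, a stem cell transcription factor gene, had 3 of 8. The progenitor list was at 24.1% (13 of 54). In it, Nanos3, an RNA-binding factor gene, had a region 152 bp upstream of its start with 191 and 107, and Rarg, the RA receptor gene of these cells, had 4 of 6.

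Of the 13 genes whose tracks the study displayed, 9 had a region found at 0 h alone, and the 13 regions made up 22.4% of their 58, against 25.7% over all genes. Nanos2, Lin28a, Neurog3 and Sox3 had none. Pou5f1, the pluripotency factor gene, had one at its TSS, chr17:35506017-35506615, with 47 and 41, and 1 of its 3 regions was shared. Sdc4, a syndecan gene, had one 2252 bp upstream with 256 and 184. Zfp462 had 3 of 7, with 92 and 94, 62 and 82, and 36 and 30. Enc1 had one 5937 bp upstream with 60 and 55, and Onecut2 had one in an intron with 55 and 53. These genes were shown by the study for their transcripts, so the list is no independent choice.

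Genes of differentiation had them too. The differentiating list was at 17.8% (8 of 45 regions, 7 of 16 genes). Stra8, induced by RA and required for meiosis, had one in an intron at chr6:34927153-34927527 with 94 and 72, and Kit had 2 of its 3, in an intron with 68 and 36 and in an exon with 38 and 64. Ccnd2 and Sycp3 held the highest, the latter 1411 bp upstream with 100 and 115. Dmrt1 and Dmrtb1 had 1 each, with 0 h heights of 88 and 50. The germ cell and piRNA list was at 14.1% (9 of 64), with all 3 regions of Dppa3, a germline and pluripotency gene, in it (highest 129 and 118) and 3 of 6 at Tdrd7. The pluripotency list was at 20% (13 of 65) and the meiotic list at 20.5% (15 of 73).

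RA pathway genes were at 31.2% (30 of 96 regions, 19 of 28 genes). Ligand-degrading enzymes were among them: Cyp26a1 and Cyp26c1, which lie side by side, shared a region 5232 bp into the Cyp26c1 locus and 6864 bp upstream of Cyp26a1, with 159 and 170. Dhrs3, which reduces retinal, had one 2043 bp upstream with 128 and 118. Of the receptors, Rarg had 4 of 6, Rxrg 3 of 6, Rara 1 of 8, Rxrb 1 of 4, Rarb 0 of 2 and Rxra 0 of 4. Of the coactivators, Ncoa3 had 2 of 6, the highest with 170 and 182, Ncoa1 had 2 of 4 and Ncoa2 0 of 3.

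Signalling lists lay between 19.4% and 30.9%. Hedgehog genes were at 30.9% (17 of 55). By role, these were at the ligand genes Dhh (3 of 4) and Shh (2 of 4), at the receptor gene Ptch1 (1 of 8), at Boc, a co-receptor gene (4 of 7), and at the effector Gli1, 853 bp upstream with 93 and 108. Notch genes were at 26.7% (27 regions), with Maml3, a coactivator, at 7 of 26 (highest 141 and 153). TGF beta and BMP genes were at 25% (43 of 172), with Tgfb1 (129 and 183) and Smad3 (99 and 120) above the raised limits. Wnt genes were at 19.5% (39 of 200) and FGF genes at 19.4% (19 of 98). Somatic lineage factors were at 24.2% (76 of 314), among them Six2 with a region 98 bp upstream (130 and 186), and Hox genes at 23.6% (17 of 72).

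Markers of other testis cells were counted beside these. All 7 Sertoli markers had a 0 h region, 6 had one found at 0 h alone and 3 had a shared one, and 11 of the 26 regions (42.3%) were found at 0 h alone. In the longer Sertoli list it was 17 of 38 (44.7%). Sox9 had one 34 bp from its start with a height of 81, and Dhh, Cldn11 and Nr5a1 had 3 each. Among Leydig markers, Cyp17a1, Cyp11a1, Hsd3b1 and Star had no 0 h region, and the 3 regions at the other 2 included none found at 0 h alone. The longer Leydig list had 5 of 9, in Nr5a1 and Hsd17b3. Of 4 macrophage markers, Csf1r and Adgre1 had no 0 h region. The other 2, Cd68 and Ptprc, both had a region found at 0 h alone, with 2 of 6 regions (33.3%). The list of peritubular, macrophage and endothelial genes was at 27.0% (10 of 37), but by marker the parts differed: all 4 peritubular markers had a region found at 0 h alone, with 6 of 14 regions (42.9%), whereas endothelial markers had 1 of 11 (9.09%). Germ cell markers all had a 0 h region, with 3 of 12 (25%) found at 0 h alone, all at Dppa3. Markers of undifferentiated spermatogonia had 12 of 44 (27.3%) and those of differentiating ones 4 of 16 (25%), against 25.7% over all genes. The highest 0 h region of the germ cell markers was at 1009, against 1201 for the macrophage markers, 318 for peritubular and 313 for Sertoli markers. It was at 1035 for undifferentiated and 301 for differentiating spermatogonia markers. Only 1 of the 4 macrophage markers had a shared region. A region is assigned to every gene within 10 kb, as with the Cd68 region above, so a highest region can also belong to a neighbouring gene. The part of other cells in the 0 h libraries was not tested.

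By chromosome, the share of 0 h regions found at 0 h alone ran from 25.9% on chromosome 7 to 36.1% on chromosome 3 among autosomes. Density was highest on chromosome 10, with 9.65 per Mb, and 2.41 per Mb on X. On X the share was 35.4%, within the range of the autosomes, and only 24 regions of both 0 h libraries were on Y.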

How the data were processed

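Per the methods and the submitters' processing notes, the authors aligned ATAC-seq reads to mm10 with BWA 0.7.12, removed duplicates, reduced all libraries to equal numbers of tags and called peaks per library with MACS2 2.1.0 without a control. The deposited table gives each peak's position, its signal as tag coverage at the summit and as a mean over the peak, CpG islands and genes within 10 kb, per the file headers. A peak's read number was not analysed here, so depth per peak is unknown and no counting interval is given. The 328733 peaks were merged in Python 3.11.15 with pandas 2.3.3. These are the 87144 regions that the authors' own list of merged peaks has as well.

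The regions, gene lists, motifs and tests were chosen with earlier results of these data known. Named regions are the 20 highest, the 10 highest at a TSS, the 10 highest with a CpG island, the 5 lowest, and the 5 highest with 1 later peak. Named genes are those with most regions, those of the lists and 13 whose tracks the study displayed. Genes of the lists above the raised limits were named after their values were seen. A few genes that these rules name are not reported here. Distances and genes are those of the table, features are from GENCODE vM21, and sequence, GC content and soft-masked repeats are from GRCm38.p6 over 100 bp on each side of the summit bin's centre. Weighting used 5 classes of GC and 5 of height.

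Log2 summit values of the 15536 shared regions were fitted in limma 3.58.1 (R 4.3.3) with 4 groups and no block, by lmFit and eBayes, at a Benjamini-Hochberg threshold of 0.05. Merging and fit were tested on simulated data. Correlations of same-numbered libraries' deviations from their group means ran from -0.224 to 0.248, so the replicate numbers do not pair the libraries. P-values measure the spread between mice, 2 per timepoint.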

Additional observations from a re-analysis of the deposited data

How the results depend on the processing

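The number of regions, 18636, was within a factor of 1.5 under 50% overlap, summit windows, a summit value of at least 50 and the authors' merged list, and in 7 of the 8 fits without a library. The limit of 50 also removed later peaks below it, so its 15634 regions are partly other regions. Of the 18636, 8437 had a height of at least 50 in both 0 h libraries. The authors' list holds the same 87144 regions, so its count was fixed in advance, and leaving out a library loosens the rule. Leaving out single libraries gave 18806 to 28978, the highest without 0 h replicate 2. A peak in either 0 h library gave 35592, allowing 1 of the 2 libraries of a later timepoint 30507, and equal numbers of highest peaks 835. Limits raised by signal level, chosen after seeing the data, gave 2713 (lowest called peak) and 757 (5th percentile).

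The percent at a TSS, 7.36%, was 9.15% with 50% overlap, 11.8% (11.75) with values of at least 50, 11.74% with equal numbers, 9.93% with 1 later library allowed, 11.83% within 3000 bp, 11.4% and 14.4% under the raised limits, and 7.01% to 8.22% without single libraries. The percent with a CpG island, 5.07%, was in the same order of settings (without the distance) 7.34%, 9.89%, 7.30%, 8.24%, 10.3%, 11.0% and 4.78% to 6.10%. The percent with no gene, 43.2%, was 41.1%, 37.3%, 31.6%, 39.1%, 29.5%, 21.1% and 41.3% to 43.15%. The share in the lowest height class, 79.6%, was 79.0% with 0 h replicate 1 alone as the height.

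Of shared regions beside those found at 0 h alone, 2569 (91.3%) were lower at 18 h, against 92.3% of all 15536. Centring left 6 lower (0.213%, against 0.225% of all) and 51 higher (1.81%, against 1.25%), with the median reversed. Quantile normalization left 4 lower (0.142%, against 0.187%). Without single libraries the count was 1381 (18 h replicate 1) to 2417, and 1503 without 0 h replicate 2. From 48 to 120 h, 574 were higher, against 233 with centring (median reversed), 15 with quantile normalization, 250 with only these 4 libraries, and 12 (without 48 h replicate 1) to 1338 (without 120 h replicate 2). A library left alone was assumed to vary like the other groups. Of the 2815, 0.533% were higher at 120 h with quantile normalization and 8.88% with only the 4 libraries of 48 and 120 h. Over all 15536 these shares were 0.444% and 9.89%. The median log2 change to 18 h was -1.05 (all -1.04) without 18 h replicate 1 and -1.08 (all -1.09) without 0 h replicate 2. From 48 to 120 h it was 0.36 (all 0.44) without 48 h replicate 1 and 0.83 (all 0.87) without 120 h replicate 2. With the replicate block, which has no pairing behind it, the counts were 2509 (89.1%, against 90.4% of all) and 428 (15.2%, against 17.2%). The causes were not tested.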
